A study of Mus musculus with 95 samples.

Results

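This report covers 10 mouse genes whose products build the meiotic chromosome axis and the synaptonemal complex. They are Sycp1, Sycp2, Sycp3, Stag3, Smc1b, Rec8, Hormad1, Hormad2, Syce1 and Syce2. They were taken by name, with earlier results of these data known, from the 23377 genes of a table of RNA-seq counts from mouse embryonic stem cells. Their starts were then searched for ChIP-seq peaks within 2.5 kb.

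In a germ cell that enters meiosis, sister chromatids are held by cohesin complexes with meiotic subunits, and their loops are gathered on a protein axis. Paired homologous chromosomes are then joined along their axes by a zipper of transverse filaments with a central element, the synaptonemal complex. Outside the germ line, genes for these proteins are mostly kept silent or low. In embryonic stem cells, a form of Polycomb repressive complex 1 that contains PCGF6, MGA, MAX, E2F6 and L3MBTL2 is known to bind at many germline promoters, where its RING1B subunit can ubiquitinate histone H2A.

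All cells were E14 mouse embryonic stem cells or clones derived from them, kept on gelatin in serum medium, with LIF and 2 inhibitors, of GSK3β and of MEK1/2. RNA-seq covered 7 genotypes with 2 libraries each, namely wild-type, Pcgf1-/-, Pcgf2/4-/-, Pcgf3/5-/-, Pcgf6-/-, Pcgf1/2/4-/- and Pcgf3/5/6-/-. Knockouts were made with Cas9 in isolated clones, and the multiple knockouts by editing single-knockout clones again, so a genotype may stand for 1 clone. ChIP-seq peak lists came from 80 samples. Among them were the conditional line Ring1a-/-_Ring1bfl, which carries Rosa26::CreERT2 and lacks Ring1A, and Ring1a/b-/-. Knockdowns with lentiviral short hairpins were labelled shCtr, shMGA, shMGAdHLH, shE2F6 and shE2F6-MGAdHLH. The labels do not say that replicate libraries came from separate cultures, so p-values measure the spread between these libraries, which may be technical.

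The stretches just before the starts of 7 of the genes are shown here, because the results below turn on peaks at these positions. Each has 140 bases and ends at the base before the RefSeq start (RefSeq, GRCm38.p6). Capitals mark 3 short motifs, each searched on both strands. They are GCGGGAA, as bound by E2F factors, the E-box CACGTG, as bound by MGA with MAX and by USF1, and TCTCGCGA, a CGCG element chosen after the sequences had been seen. A T-box motif, AGGTGTGA, was also searched and does not occur in these stretches. The motifs overlap only at Sycp1 and Smc1b, where TCTCGCGA and its reverse complement share bases.
Hormad1 (chr3:95559537-95559676, plus strand): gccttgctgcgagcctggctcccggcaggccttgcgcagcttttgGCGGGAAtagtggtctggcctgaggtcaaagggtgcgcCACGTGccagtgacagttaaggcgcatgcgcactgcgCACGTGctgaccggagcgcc
Sycp3 (chr10:88459447-88459586, plus strand): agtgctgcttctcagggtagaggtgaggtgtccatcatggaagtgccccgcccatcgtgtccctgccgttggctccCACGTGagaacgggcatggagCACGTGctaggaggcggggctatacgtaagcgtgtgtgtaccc
Sycp1 (chr3:102936101-102936240, minus strand): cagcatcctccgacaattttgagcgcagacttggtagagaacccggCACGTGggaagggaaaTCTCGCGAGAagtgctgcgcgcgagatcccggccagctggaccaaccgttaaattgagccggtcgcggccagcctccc
Smc1b (chr15:85131958-85132097, minus strand): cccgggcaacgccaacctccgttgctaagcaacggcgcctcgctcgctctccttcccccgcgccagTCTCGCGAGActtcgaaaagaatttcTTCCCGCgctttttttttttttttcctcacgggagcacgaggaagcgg
Stag3 (chr5:138280369-138280508, plus strand): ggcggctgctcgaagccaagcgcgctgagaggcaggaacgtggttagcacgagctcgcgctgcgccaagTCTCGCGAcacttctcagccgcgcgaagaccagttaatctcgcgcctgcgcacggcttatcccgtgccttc
Sycp2 (chr2:178407659-178407798, minus strand): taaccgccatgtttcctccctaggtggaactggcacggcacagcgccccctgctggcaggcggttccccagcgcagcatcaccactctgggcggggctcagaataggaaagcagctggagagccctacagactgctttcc
Rec8 (chr14:55618026-55618165, plus strand): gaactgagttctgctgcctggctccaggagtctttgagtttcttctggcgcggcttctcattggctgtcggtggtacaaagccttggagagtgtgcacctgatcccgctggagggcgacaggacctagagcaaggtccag

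In the whole RefSeq window of 300 bases (250 before and 50 after the start), GCGGGAA was found for 5 of the 10 genes, namely Sycp3, Stag3, Smc1b, Hormad1 and Syce2, against 4.60% of the 32851 promoters of the table. The E-box was found for 5 genes, Sycp1, Sycp3, Stag3, Hormad1 and Syce2, against 7.15%. TCTCGCGA was found for Sycp1, Stag3 and Smc1b, against 0.995%, and its first base lay 78, 71 and 74 bases before the start, counting the base next to the start as 1. That motif was chosen after these sequences had been seen, so its excess over the background is no support. AGGTGTGA was found for Sycp3 alone, against 1.28%. Sycp2, Rec8, Hormad2 and Syce1 held none of the 4 motifs in this window. These matches describe the sequence and were not tested as binding sites.

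RNA-seq libraries held between 2147968 and 7848161 counts, of which between 712 and 7292 fell on the 10 genes. The 2 wild-type libraries differed by less than sampling noise (chi-square per degree of freedom 0.951 over genes) and may be repeats of 1 library. Replicates stood further apart in the other lines, most in Pcgf2/4-/- (21.3), Pcgf1-/- (10.8) and Pcgf3/5-/- (5.62). The wild-type libraries were kept as 2. With their counts summed, 2 calls among the 10 genes did not pass, both of Sycp1 (in Pcgf1-/- and Pcgf2/4-/-). Pcgf6 itself was at 36.2 and 34.3 CPM (read counts scaled to library size with TMM factors) in wild-type libraries and had no count in the Pcgf6-/- libraries. In the libraries labelled Pcgf3/5/6-/-, Pcgf6 stood at 42.0 and 37.2 CPM, at the wild-type level. Whether that transcript encodes a protein was not tested, and directions drawn from these libraries rest on their label. Stem cell markers were present in every line, with a summed level of 8 genes between 1699 and 3569 CPM.

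Most of these genes were higher in cells without Pcgf6. In Pcgf6-/- against wild-type, 8 of the 10 rose, 1 fell (Stag3) and 1 did not pass the test (Syce2), at an adjusted p below 0.05 (edgeR quasi-likelihood test, Benjamini-Hochberg over 15464 genes). Of all genes tested, 27.8% rose and 18.6% fell in this comparison. The median log2 fold change was 1.30 for the 10 genes and 0.03 for all genes tested. All 10 passed the filter on low counts, Sycp2 only through the lines in which it was high, so its call adds no support. In bulk RNA, a change in the number of cells that express a gene and a change in RNA per cell cannot be told apart.

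**Figure D1:**
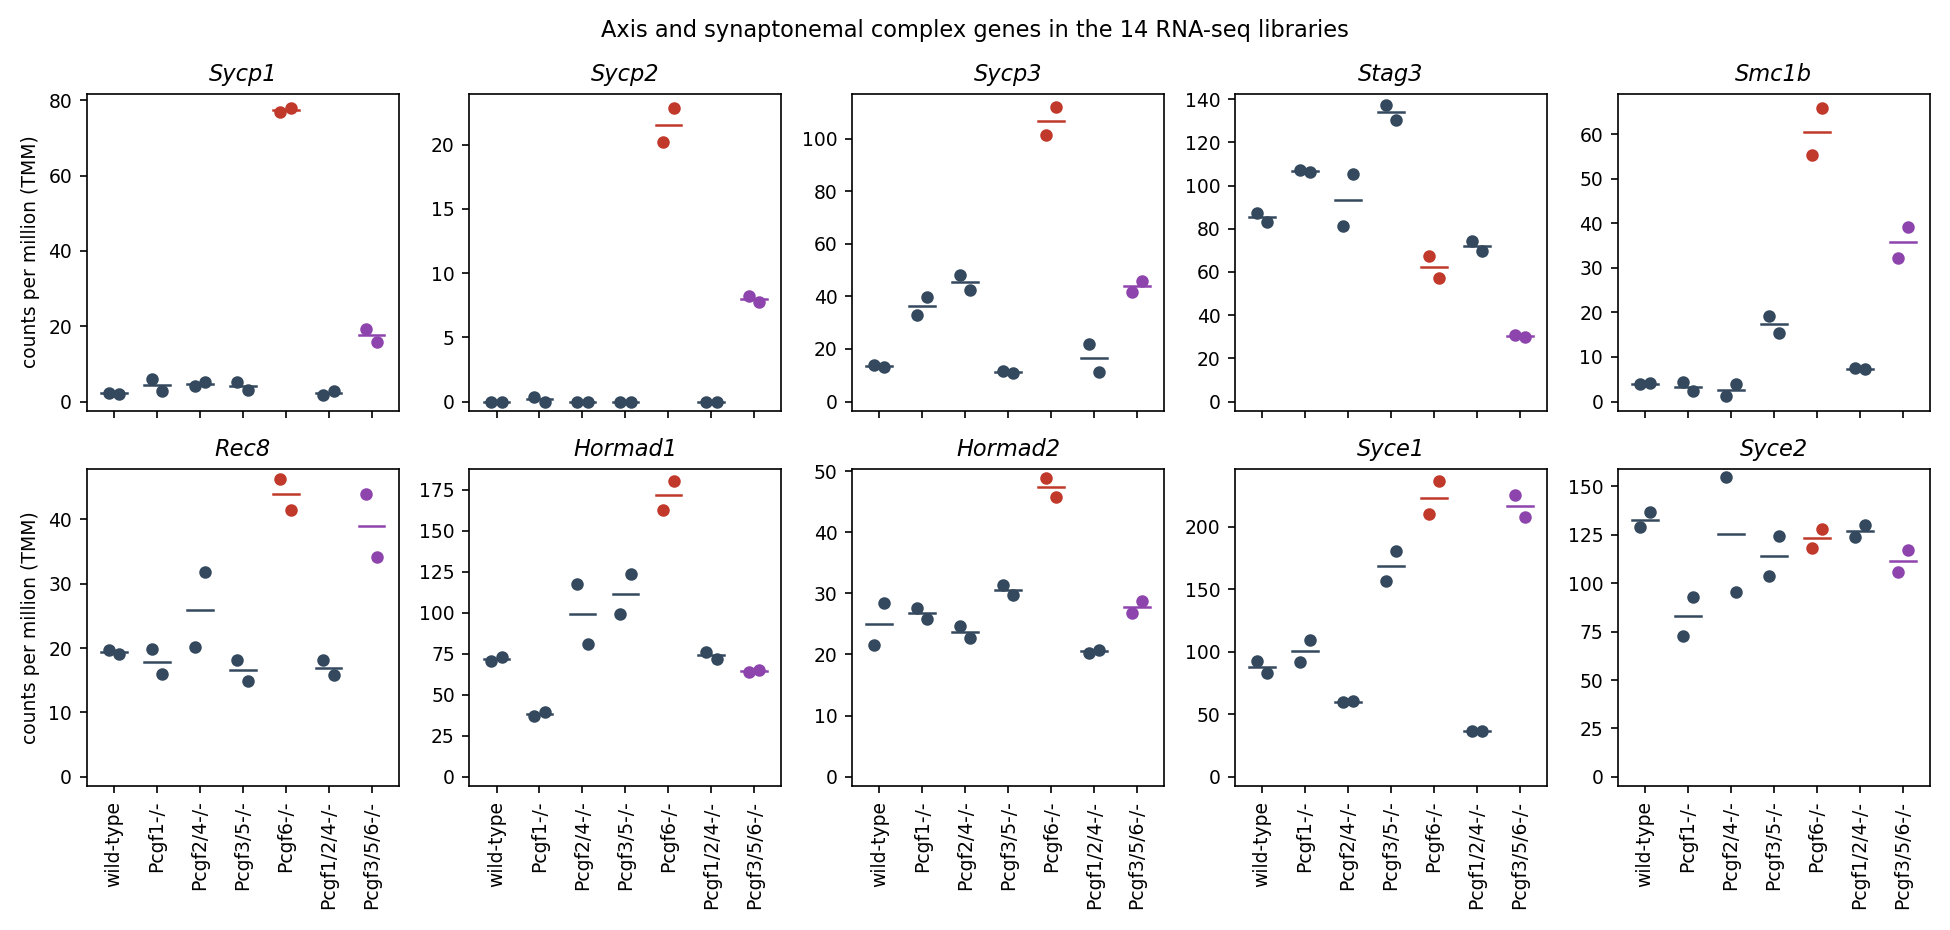
Levels in CPM (TMM-scaled) of the 10 genes in each of the 14 libraries, by genotype. Points are libraries, bars are the mean of 2 libraries, red marks Pcgf6-/- and purple the libraries labelled Pcgf3/5/6-/-. Sycp1, Sycp2, Sycp3, Smc1b, Hormad1 and Hormad2 are highest in both Pcgf6-/- libraries, Stag3 is lowest in the libraries labelled Pcgf3/5/6-/-, and Syce2 shows no separate group.

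SYCP1 forms the transverse filaments, the rungs that join the paired axes. Its gene spans chr3:102622422-102740023 on the minus strand (NCBIM37). Sycp1 was at 2.28 and 2.11 CPM in the wild-type libraries and at 76.8 and 78.0 CPM in the Pcgf6-/- libraries. Both Pcgf6-/- libraries lay far above every other library. The log2 fold change was 5.12 ± 0.26 (SE, n = 2 libraries per group, adjusted p = 2.72e-09 in edgeR), a 35.2-fold difference in pooled level. The libraries labelled Pcgf3/5/6-/- were in between, at 19.3 and 15.9 CPM, with a log2 fold change of 2.99 ± 0.32 against wild-type. Elsewhere Sycp1 stayed between 1.60 and 5.90 CPM. The Pcgf1-/- value rested on 54 and 12 counts and the Pcgf2/4-/- value on 10 and 41. Their log2 fold changes of 1.10 and 1.16 passed the test (adjusted p = 0.0292 and 0.0397 in edgeR). The Pcgf1-/- value fell to 0.32 without Pcgf1-/- replicate 1 and did not pass there. The Pcgf2/4-/- value did not pass without Pcgf2/4-/- replicate 2 (0.92, adjusted p = 0.259 in edgeR). Neither call passed with either wild-type library left out.

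SYCE1 and SYCE2 belong to the central element, which holds the filaments together at the midline. Syce1 (chr7:147963128-147973753, minus strand) was already among the most abundant of the genes, at 92.6 and 83.4 CPM in wild-type. It reached 210.5 and 236 CPM in Pcgf6-/- and 225 and 208 CPM in the libraries labelled Pcgf3/5/6-/-, with log2 fold changes of 1.34 ± 0.13 and 1.30 ± 0.13. Both lines lay above all wild-type libraries and did not differ from each other past the threshold (log2 difference -0.04, adjusted p = 0.800 in edgeR). Pcgf3/5-/- also rose, by 0.94 ± 0.13. Syce1 fell by 0.55 in Pcgf2/4-/- and by 1.27 in Pcgf1/2/4-/-, where both libraries were at 36.3 and 36.6 CPM, so this gene moved in 5 of the 6 knockout lines. Its fall in Pcgf2/4-/- did not pass the test without wild-type replicate 1 (-0.47, adjusted p = 0.101 in edgeR).

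Syce2 (chr8:87396010-87412120, plus strand) had the highest wild-type level of the 10, 129 and 137 CPM. It was at 118 and 128 CPM in Pcgf6-/- and at 106 and 117 CPM in the libraries labelled Pcgf3/5/6-/-. Its log2 fold changes of -0.11 ± 0.18 and -0.25 ± 0.19 did not pass the test. Pcgf1-/- was the exception, with 72.9 and 93.1 CPM and a fall of 0.69 on the log2 scale (adjusted p = 0.0122 in edgeR). That call did not pass without Pcgf1-/- replicate 1 or without wild-type replicate 2. The 2 central element genes of the list therefore moved differently in the Pcgf6-/- line, with Syce1 raised and Syce2 not called.

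SYCP2 and SYCP3 form the lateral elements, the filaments that run along each chromosome axis. Sycp2 (chr2:178079998-178142390, minus strand) had no count in 9 libraries, including both of wild-type, Pcgf2/4-/-, Pcgf3/5-/- and Pcgf1/2/4-/-, and 3 counts in 1 of the Pcgf1-/- libraries. It had 20.2 and 22.8 CPM in Pcgf6-/-, from 162 and 149 counts. The libraries labelled Pcgf3/5/6-/- had 8.22 and 7.77 CPM. With a floor of 3 counts over the wild-type group, the pooled level was at least 100.5-fold higher in Pcgf6-/-. In the libraries labelled Pcgf3/5/6-/- it was at least 37.7-fold higher. Sycp2 passed the filter on low counts only through these lines, so its p-values there are not given as support. Of the 10, Sycp2 alone was undetected in wild-type cells, where a count of 0 allows a level of up to 0.213 CPM over the group.

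Sycp3 (chr10:87922314-87935981, plus strand) was detected in every library, at 13.98 and 12.94 CPM in wild-type. The Pcgf6-/- libraries had 101 and 112 CPM, a log2 fold change of 2.98 ± 0.17 (adjusted p = 6.86e-09 in edgeR), and lay above all others. Sycp3 also rose in Pcgf1-/- (32.8 and 39.8 CPM, log2 1.41 ± 0.18), in Pcgf2/4-/- (48.2 and 42.6 CPM, 1.73 ± 0.18) and in the libraries labelled Pcgf3/5/6-/- (41.7 and 46.0 CPM, 1.70 ± 0.19). In the order of levels, the steps among these 3 lines did not pass the threshold, while those to Pcgf6-/- above and Pcgf1/2/4-/- below did. Pcgf3/5-/- stood at 11.5 and 10.7 CPM and Pcgf1/2/4-/- at 21.9 and 11.3 CPM, neither called against wild-type. The annotated exons of Sycp3 overlap those of Chpt1 on the other strand, and the use of strand in counting is not given in the sources used here, so part of its reads could belong to Chpt1.

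STAG3, SMC1B and REC8 are the meiotic counterparts of cohesin subunits of dividing cells. Smc1b (chr15:84895121-84962387, minus strand) was low in wild-type, at 3.85 and 4.22 CPM. It stood at 55.3 and 65.9 CPM in Pcgf6-/- and at 32.2 and 39.2 CPM in the libraries labelled Pcgf3/5/6-/-, with log2 fold changes of 3.90 ± 0.25 and 3.14 ± 0.27. Pcgf3/5-/- libraries had 19.3 and 15.3 CPM, a log2 fold change of 2.10 ± 0.27. These 3 lines and Pcgf1/2/4-/- formed a descending order in which each step passed the test. Smc1b starts 142 bp from Ribc2 on the other strand, and Ribc2 rose as well, from 0.285 and 0.844 CPM to 4.36 and 5.21 CPM in Pcgf6-/- (log2 3.02 ± 0.47). Ribc2 had 2 and 6 counts in wild-type. It passed the filter on low counts only through Pcgf6-/- and the libraries labelled Pcgf3/5/6-/-, so its call adds no support.

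Rec8, the kleisin that closes the meiotic cohesin ring (chr14:56236874-56244232, plus strand), was at 19.7 and 19.1 CPM in wild-type. It rose to 46.3 and 41.5 CPM in Pcgf6-/- (log2 1.18 ± 0.18, adjusted p = 0.000115 in edgeR) and to 43.9 and 34.1 CPM in the libraries labelled Pcgf3/5/6-/- (1.01 ± 0.20). These lines did not differ from each other past the threshold. In the other 4 knockout lines Rec8 lay between 15.0 and 31.8 CPM and was not called.

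Stag3 (chr5:138721468-138753621, plus strand) went the other way. It stood at 87.3 and 83.3 CPM in wild-type, at 67.6 and 57.3 CPM in Pcgf6-/- and at 30.7 and 29.7 CPM in the libraries labelled Pcgf3/5/6-/-. The log2 fold changes were -0.45 ± 0.12 (adjusted p = 0.00731 in edgeR) and -1.50 ± 0.14 (1.08e-06). The smaller of these did not pass without Pcgf6-/- replicate 2 (-0.34, adjusted p = 0.105 in edgeR) or without wild-type replicate 1 (0.0569). In Pcgf3/5-/- Stag3 rose to 137 and 131 CPM, by 0.65 ± 0.12, the highest level of any line. Stag3 starts 235 bp from Gpc2 on the other strand, and Gpc2 was not called against wild-type in either line.

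HORMAD1 and HORMAD2 are HORMA-domain proteins that mark axes that have not yet paired. Hormad1 (chr3:95363599-95391593, plus strand) was at 70.5 and 73.1 CPM in wild-type and at 163 and 181 CPM in Pcgf6-/-, a log2 fold change of 1.26 ± 0.15 (adjusted p = 9.1e-06 in edgeR). The libraries labelled Pcgf3/5/6-/- stayed at 63.8 and 64.9 CPM and were not called (-0.16 ± 0.16). Pcgf1-/- libraries were lower, at 37.1 and 39.8 CPM, a fall of 0.91 on the log2 scale. Pcgf3/5-/- libraries had 99.3 and 123.9 CPM, a rise of 0.63 ± 0.15 that did not pass without Pcgf3/5-/- replicate 2 or either wild-type library.

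Hormad2 (chr11:4245817-4341108, minus strand) was at 21.6 and 28.4 CPM in wild-type and at 48.9 and 45.8 CPM in Pcgf6-/-, a log2 fold change of 0.92 ± 0.13 (adjusted p = 5.67e-05 in edgeR). It was not called in any other line, where its libraries lay between 20.3 and 31.4 CPM. Both Hormad genes thus rose in Pcgf6-/- and were not called in the libraries labelled Pcgf3/5/6-/- against wild-type.

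Per kb of exon, the wild-type level was highest for Syce2 (67.4 CPM per kb), Syce1 (60.2) and Hormad1 (41.5). It was lowest for Smc1b (1.00), Sycp1 (0.63) and Sycp2 (no count). The genes thus did not start from a shared level. Across the 7 genotypes, 19 of the 60 steps between neighbours in the order of the genes' levels passed the test. Syce1 had 4 of 6 and Syce2 0 of 6. That order was set by the same levels that were tested. Steps were not counted for all genes, so whether these numbers are unusual was not tested. The highest level was that of Pcgf6-/- for 8 of the 10 genes.

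The libraries labelled Pcgf3/5/6-/- shared the direction of the Pcgf6-/- line for part of the genes. Against wild-type, 6 rose and Stag3 fell, against 28.0% and 25.3% of all genes tested. The 6 included Sycp2, which was tested only because of its counts in these libraries and in Pcgf6-/-. Against Pcgf6-/-, 7 of the 10 were lower and 0 higher (27% and 19.0% of all genes). The 7 were Sycp1 (-2.13), Sycp2 (-1.42), Sycp3 (-1.28), Stag3 (-1.05), Smc1b (-0.76), Hormad1 (-1.41) and Hormad2 (-0.77), on the log2 scale. Against Pcgf3/5-/-, 6 were higher and 2 lower, Stag3 by -2.15 and Hormad1 by -0.79 (27.1% and 24.7% of all genes). Sycp2, with no count in Pcgf3/5-/-, was again among the 6, and its call adds no support. These comparisons share libraries and are given side by side. The Smc1b difference from Pcgf6-/- did not pass without Pcgf6-/- replicate 2 or Pcgf3/5/6-/- replicate 1. The Syce1 difference from Pcgf3/5-/- (0.36) did not pass without either library labelled Pcgf3/5/6-/- or without Pcgf3/5-/- replicate 1.

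In the remaining lines, between 1 and 4 of the genes were called. In Pcgf1-/-, Sycp1 and Sycp3 rose and Hormad1 and Syce2 fell (13.9% and 18.4% of all genes). In Pcgf2/4-/-, Sycp1 and Sycp3 rose and Syce1 fell (8.10% and 13.5%). In Pcgf3/5-/-, Stag3, Smc1b, Hormad1 and Syce1 rose and 0 fell (11.1% and 10.4%). In Pcgf1/2/4-/-, 0 rose and Syce1 fell (14.4% and 22.6%). Without an adjustment, 5, 5, 5 and 2 of the genes had p below 0.05 in these 4 comparisons (edgeR). The counts of 4, 3 and 1 for Pcgf1-/-, Pcgf2/4-/- and Pcgf1/2/4-/- moved by over 1.5 times when single libraries were left out, to 2 without Pcgf1-/- replicate 1 or wild-type replicate 2, to 6 without Pcgf2/4-/- replicate 1 or 1 without wild-type replicate 1, and to 2 without Pcgf1/2/4-/- replicate 2.

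**Figure D2:**
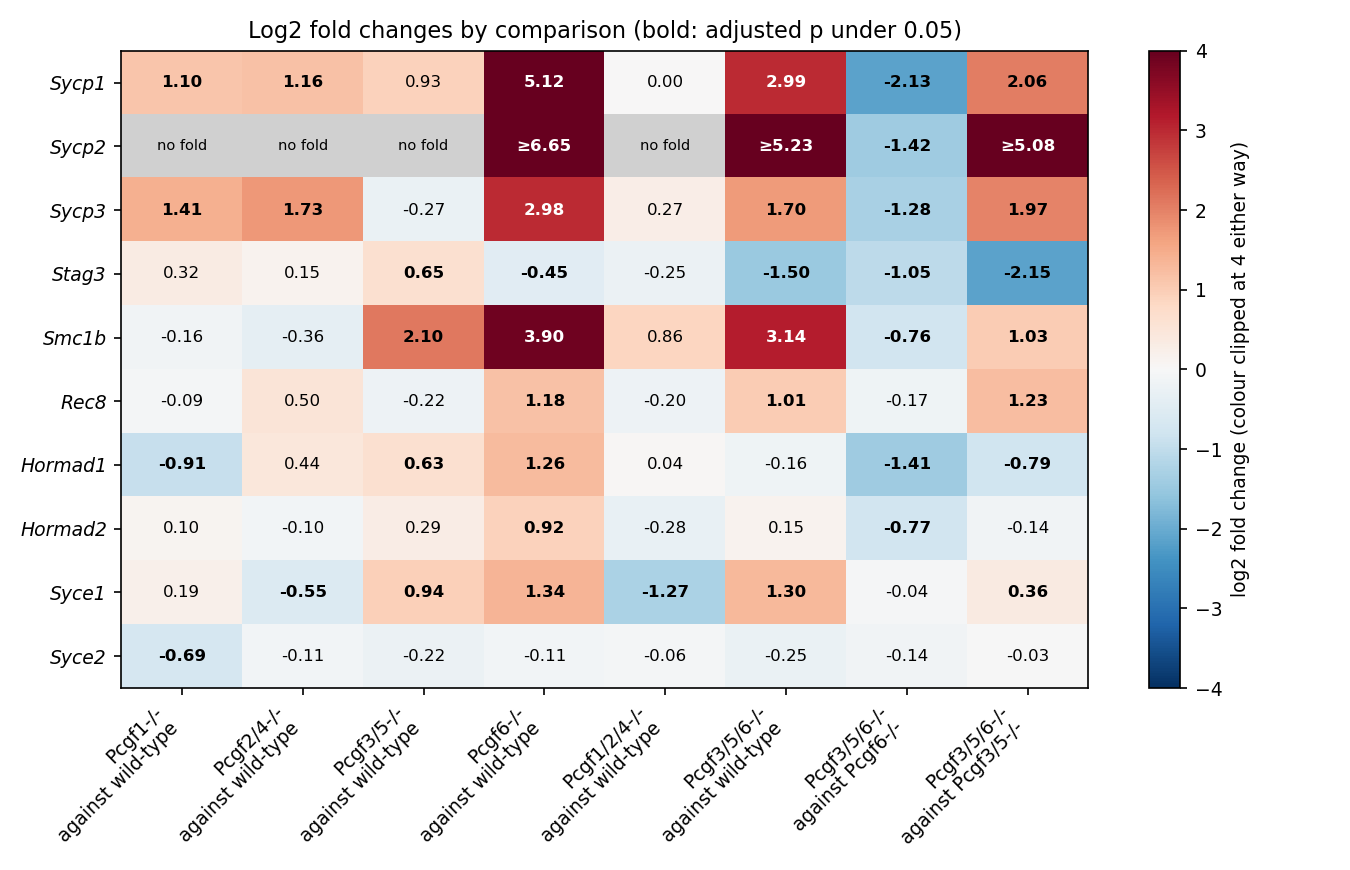
Log2 fold changes of the 10 genes (rows) in 8 comparisons (columns), coloured from blue (lower in the first line) to red (higher), with bold values at an adjusted p below 0.05. "No fold" marks Sycp2 where both groups were at or under the floor of 3 counts, and ≥ marks a lower bound against that floor. The Pcgf6-/- column holds 8 raised genes and the Pcgf1/2/4-/- column a single called gene, Syce1.

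The authors' deposited tables compare each knockout with wild-type. For Pcgf6-/- the authors' deposited table carries another line number in its column name than the count table, and whether both hold the same samples is not known. In the authors' deposited table for Pcgf6-/-, 9 of the 10 genes passed an adjusted p of 0.05, 8 of them positive. In the authors' deposited tables for Pcgf1-/-, Pcgf2/4-/-, Pcgf3/5-/-, Pcgf1/2/4-/- and Pcgf3/5/6-/-, 5, 4, 4, 2 and 7 passed. Of these, 3, 3, 4, 1 and 6 were positive. The positive gene for Pcgf1/2/4-/- was Smc1b (log2 0.95), which was not called in the fit used here. Shares of all genes were not computed for the authors' deposited tables, so these counts have no background beside them.

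Other genes of the same structures moved in part. A list of 18 further synaptonemal, axis, crossover and telomere-attachment genes was matched for 17, of which 15 were tested. In Pcgf6-/- against wild-type, 7 of these rose and 1 fell, against 27.8% and 18.6% of all genes, with a median log2 fold change of 0.06 beside 0.03 for all genes. The 7 included the remaining central element genes, Syce3 (3.12 ± 0.25), Tex12 (3.95 ± 0.20) and 4930447C04Rik, which encodes SIX6OS1 (3.36 ± 0.22). Also raised were Tex11 (3.64), Ccdc36, which encodes IHO1 (2.85), 4933406J08Rik, which encodes TERB2 (1.75), and 4930404A10Rik, which encodes MEIKIN (6.33). 4930404A10Rik had 1 and 0 counts in wild-type and 63 and 47 in Pcgf6-/-. It passed the filter on low counts only through Pcgf6-/-, so its calls add no support. Ccdc155, which encodes the telomere linker KASH5, fell by 0.79. In levels, Syce3 went from 3.00 and 2.95 CPM in wild-type to 27.1 and 24.97 CPM, and Tex12 from 3.14 and 4.22 CPM to 53.7 and 60.7 CPM. Trip13, Ccnb1ip1, Msh4, Msh5, Sun1, Sgol2 and 1700123I01Rik, which encodes MAJIN, did not pass the test, and Rad21l and Ccdc79 had too few counts to be tested.

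In the libraries labelled Pcgf3/5/6-/-, 6 of the 15 rose and 4 fell, against 28.0% and 25.3% of all genes. In Pcgf3/5-/- 6 rose and 0 fell, against 11.1% and 10.4%. In Pcgf1-/- 2 rose and 1 fell (13.9% and 18.4%), in Pcgf2/4-/- 0 and 1 (8.10% and 13.5%), and in Pcgf1/2/4-/- 0 and 5 (14.4% and 22.6%). Cohesin genes of dividing cells, 13 in all, had 1 member that rose (Esco1) and 3 that fell (Smc1a, Stag1 and Wapal) in Pcgf6-/-, against 27.8% and 18.6% of all genes, with a median of -0.18. In the libraries labelled Pcgf3/5/6-/-, 1 of the 13 rose and 9 fell, against 28.0% and 25.3% of all genes, with a median of -0.55. Smc1a, the counterpart of Smc1b, fell by 0.39 in Pcgf6-/- and by 0.94 in those libraries.

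Genes of the PCGF6 complex itself changed in part. Of 12 listed, Mga fell by 0.97 in Pcgf6-/- (226 and 216 CPM in wild-type, 112 and 114 CPM in Pcgf6-/-), as did Ring1 (0.94) and Pcgf6, which had no count. E2f6 rose by 0.64 and Yaf2 by 0.77, and the other 7 did not pass the test. The shares of all genes in this comparison were 27.8% raised and 18.6% lowered. In the libraries labelled Pcgf3/5/6-/-, Mga fell by 1.30 and Max rose by 0.72, where 25.3% of all genes fell and 28.0% rose. The part that a lower Mga level played in the results was not tested.

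Marker lists for other cells moved with these comparisons, and their part in the results was not tested. Of all genes tested, 27.8% rose and 18.6% fell in Pcgf6-/-, the background for each list in this paragraph. Among 12 germ cell markers, 9 were tested, of which 7 rose and 0 fell in Pcgf6-/-. The summed level of the 12 was 904 and 978 CPM there against 127 and 135 CPM in wild-type. Ddx4 (log2 3.92), Stra8 (4.45), Mael (3.23), Dazl (2.55), Tdrd1 (5.62), Tex101 (2.93) and Piwil1 (1.31) rose. Prdm9 (9.85 and 11.4 CPM in wild-type, 12.1 and 8.58 CPM in Pcgf6-/-) did not pass the test. Neither did Dmc1 (28.5 and 28.7 CPM in wild-type, 32.6 and 28.3 CPM in Pcgf6-/-). Spo11, Acr and the spermatid gene Prm1 had too few counts to be tested, and Prm1 had no count in any line. In the libraries labelled Pcgf3/5/6-/- the germ cell sum was 886 and 867 CPM, and in the other 4 knockout lines it lay between 99.3 and 136 CPM. The sum of 6 endoderm markers was 55.6 and 48.6 CPM in Pcgf6-/- and 3.57 and 3.09 CPM in wild-type, where Gata6, Sox17, Dab2 and Foxa2 were at 0. Dab2 alone made up 42.5 and 38.5 CPM of the sum in Pcgf6-/-. Pdgfra also rose, and Sox7, at 1.86 and 1.12 CPM in wild-type, was at 1.12 and 0.766 CPM and did not pass the test. The sum of 4 markers of the early embryo (Zscan4c, Zscan4d, Zscan4f and Usp17la, whose near-identical copies may share reads) was 352 and 399 CPM in Pcgf6-/- and 101 and 99.9 CPM in wild-type. Sums of 6 trophoblast markers were 91.1 and 83.8 CPM in Pcgf6-/-, 116 and 121 CPM in wild-type and 328 and 322 CPM in the libraries labelled Pcgf3/5/6-/-. Within the trophoblast list, members went both ways in Pcgf6-/-, with Gata3 (log2 1.65), Tfap2c (0.86) and Elf5 raised and Cdx2 (-3.80) and Eomes (-2.32) lowered. They also did so in the libraries labelled Pcgf3/5/6-/-, where 4 rose and 2 fell (28.0% and 25.3% of all genes). Tfap2c, Gata3, Hand1 and Elf5 rose there, and Cdx2 and Eomes fell. Tfap2c alone made up 166.5 and 157 CPM of that sum, while Cdx2 went from 71.1 and 77.8 CPM in wild-type to 18.6 and 20.3 CPM. Sums of 6 fibroblast markers were 44.7 and 42.6 CPM in Pcgf6-/- and 47.1 and 43.0 CPM in wild-type. Here too members went both ways, with Thy1 (log2 3.16), Col1a2 (3.20) and Col1a1 (0.59) raised and Pdgfrb (-1.09) lowered. Tdrd1, Elf5, Thy1 and Col1a2 passed the filter on low counts only through Pcgf6-/- libraries and those labelled Pcgf3/5/6-/-. The same held for Dab2 and Hand1, with Pcgf1/2/4-/- added. Calls of these genes add no support. Of 8 stem cell markers, Sox2 rose by 0.36 and Esrrb fell by 0.68 in Pcgf6-/-, and the other 6 did not pass the test.

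PCGF6 itself was found at nearly all of these promoters. The list of 1868 PCGF6 peaks in wild-type cells had a peak within 2.5 kb of a start for 9 of the 10 genes, against 5.83% of the 21001 annotated genes of the count table. Each list came from 1 sample, so peak heights have no replicate error. Heights are the authors' fold enrichments. They were 28.4 at Smc1b (chr15:84961978-84962702), 27.1 at Stag3 (chr5:138721327-138722215) and 24.3 at Sycp1 (chr3:102739124-102740151), ranks 15, 20 and 31 of the list. Hormad1 and Sycp2 followed at 18.5 and 18.0, and Syce1 (11.1), Syce2 (8.79), Hormad2 (8.36) and Sycp3 (6.08, rank 1748) were lower. Summits lay between 104 bp before (Syce1) and 369 bp after (Sycp1) the outermost start. Rec8 had no peak, and the nearest one was 156 kb away.

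Peak height in the wild-type PCGF6 list did not order the RNA differences. Smc1b, Stag3 and Sycp1 had the highest peaks, and in Pcgf6-/- Smc1b and Sycp1 rose by 3.90 and 5.12 while Stag3 fell. Sycp3, with the lowest peak in that list, rose by 2.98. Its peak was not low in every list, and with the control hairpin shCtr it stood at 20.6 (rank 129 of 7451). Rec8, with no PCGF6 or RING1B peak in any of the lists, still rose by 1.18. Syce2 had a peak of 8.79 and was not called.

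**Figure D3:**
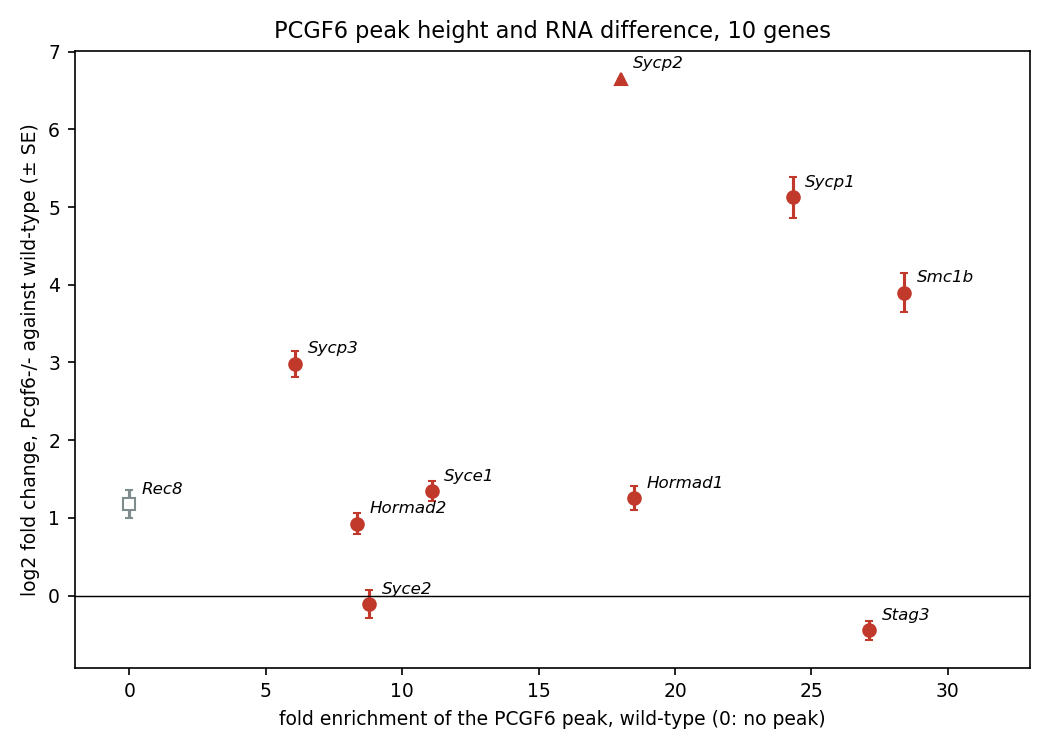
Log2 fold change in Pcgf6-/- against wild-type (vertical axis, ± SE, 2 libraries per group) against the fold enrichment of the wild-type PCGF6 peak (horizontal axis) for the 10 genes. The open square is Rec8, which has no peak, and the triangle is the lower bound of Sycp2. Stag3 lies below 0 at a fold enrichment of 27.1, beside Smc1b and Sycp1, which lie above it.

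In windows of 201 bases centred on the 9 summits, the E-box occurred at Sycp2, Sycp3, Stag3 and Hormad1, against 20.9% of all 1868 PCGF6 summits. At Sycp3 the 2 E-boxes printed above lay 17 bases before and 4 bases after the summit, and at Hormad1 15 before and 22 after. GCGGGAA occurred at Smc1b and Hormad1, against 7.49%, and TCTCGCGA at Stag3 and Smc1b, against 1.02%. Because TCTCGCGA was chosen from the sequences of these promoters, its share among them is no support. AGGTGTGA occurred at 0 of the 9, against 2.19%. USF1, a factor that binds E-boxes, had wild-type peaks at 4 genes, Stag3 (42.3), Hormad1 (16.5), Syce2 (10.7) and Sycp2 (6.07), against 17.0% of genes.

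RING1B peaks were present at most of the genes in wild-type cells and at none in Pcgf6-/-. In wild-type cells 7 of the 10 genes had a RING1B peak, all but Sycp3, Rec8 and Hormad2, against 15.8% of genes. Heights ran from 5.06 at Syce2 to 13.9 at Sycp1. RING1B peaks were present at 8 genes in Pcgf1-/- (15.9% of genes), 9 in Pcgf2/4-/- (17.7%), 8 in Pcgf3/5-/- (16.0%), and 8 in each of 2 lists from Pcgf1/2/4-/- (7.05% and 6.27%). In Pcgf6-/- 0 of the 10 had a peak, against 13.2% of genes in a list of 5563 peaks, about as long as that of wild-type (5454). The list labelled Pcgf3/5/6-/- also had 0, against 8.37% of genes and with 3068 peaks. RING1B peaks at these genes were thus called in every line examined except the 2 labelled as lacking Pcgf6, of which the Pcgf3/5/6-/- RNA libraries held Pcgf6 mRNA at the wild-type level.

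Heights at single genes varied across lines. At Stag3, RING1B stood at 9.93 in wild-type and at 22.8 and 17.8 in the 2 Pcgf1/2/4-/- lists, and at Hormad1 at 10.4 against 15.4 and 17.8. At Sycp2 the values were 11.4 against 10.96 and 10.6. Sycp3 had a RING1B peak in Pcgf2/4-/- only (8.7), a line in which its RNA was raised.

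The PCGF6 lists of other lines were of very different length. PCGF6 peaks were present at 9 of the genes in Pcgf1-/- (18.2% of genes), 9 in Pcgf2/4-/- (33.4%) and 8 in Pcgf3/5-/- (5.40%), where Sycp3 had none. They were present at 9 genes in Ring1a-/-_Ring1bfl (6.25%) and at 8 in Ring1a/b-/- (4.82%), where Sycp3 had none. Stag3 stood at 29.5 and 24.7 in these 2 lists, Sycp2 at 19.7 and 17.9, and Smc1b at 14.7 and 16.0. Sycp1 was lower in the second, at 11.5 and 6.91. In Pcgf6-/- cells the PCGF6 antibody still gave 1042 peaks, of which Sycp1 (6.91), Sycp2 (8.66), Smc1b (7.36) and Hormad1 (11.3) each had at least 1 in the window (1.62% of genes). These heights were below those in wild-type at each of the 4 genes.

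The knockdown lists held few of the PCGF6 peaks at these genes. With the control hairpin shCtr, 9 of the 10 genes had a peak, against 21.0% of genes in a list of 7451. With shMGA 0 of the 10 had one, against 0.729% of genes in a list of 468. With shMGAdHLH peaks remained at Sycp1 (11.8), Sycp2 (15.2) and Smc1b (11.2), against 2.26% of genes. With shE2F6 they remained at 5 genes, Sycp1 (11.3), Sycp2 (12.7), Stag3 (11.7), Sycp3 (6.19) and Syce1 (5.57), against 1.88%. With shE2F6-MGAdHLH they remained at Sycp1 (7.77) and Sycp2 (9.72), against 0.824%.

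Smc1b and Stag3, 2 of the highest PCGF6 peaks with shCtr (29.2 and 31.2), were split by these lists. Smc1b kept a peak with shMGAdHLH and had none with shE2F6, and Stag3 kept one with shE2F6 and had none with shMGAdHLH. Both promoters hold a GCGGGAA match, while an E-box was found for Stag3 alone. Hormad1, which holds both motifs, had a peak in neither list. The 4 knockdown lists held between 355 and 733 peaks against 7451 with shCtr, and the part that list length played was not tested.

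**Figure D4:**
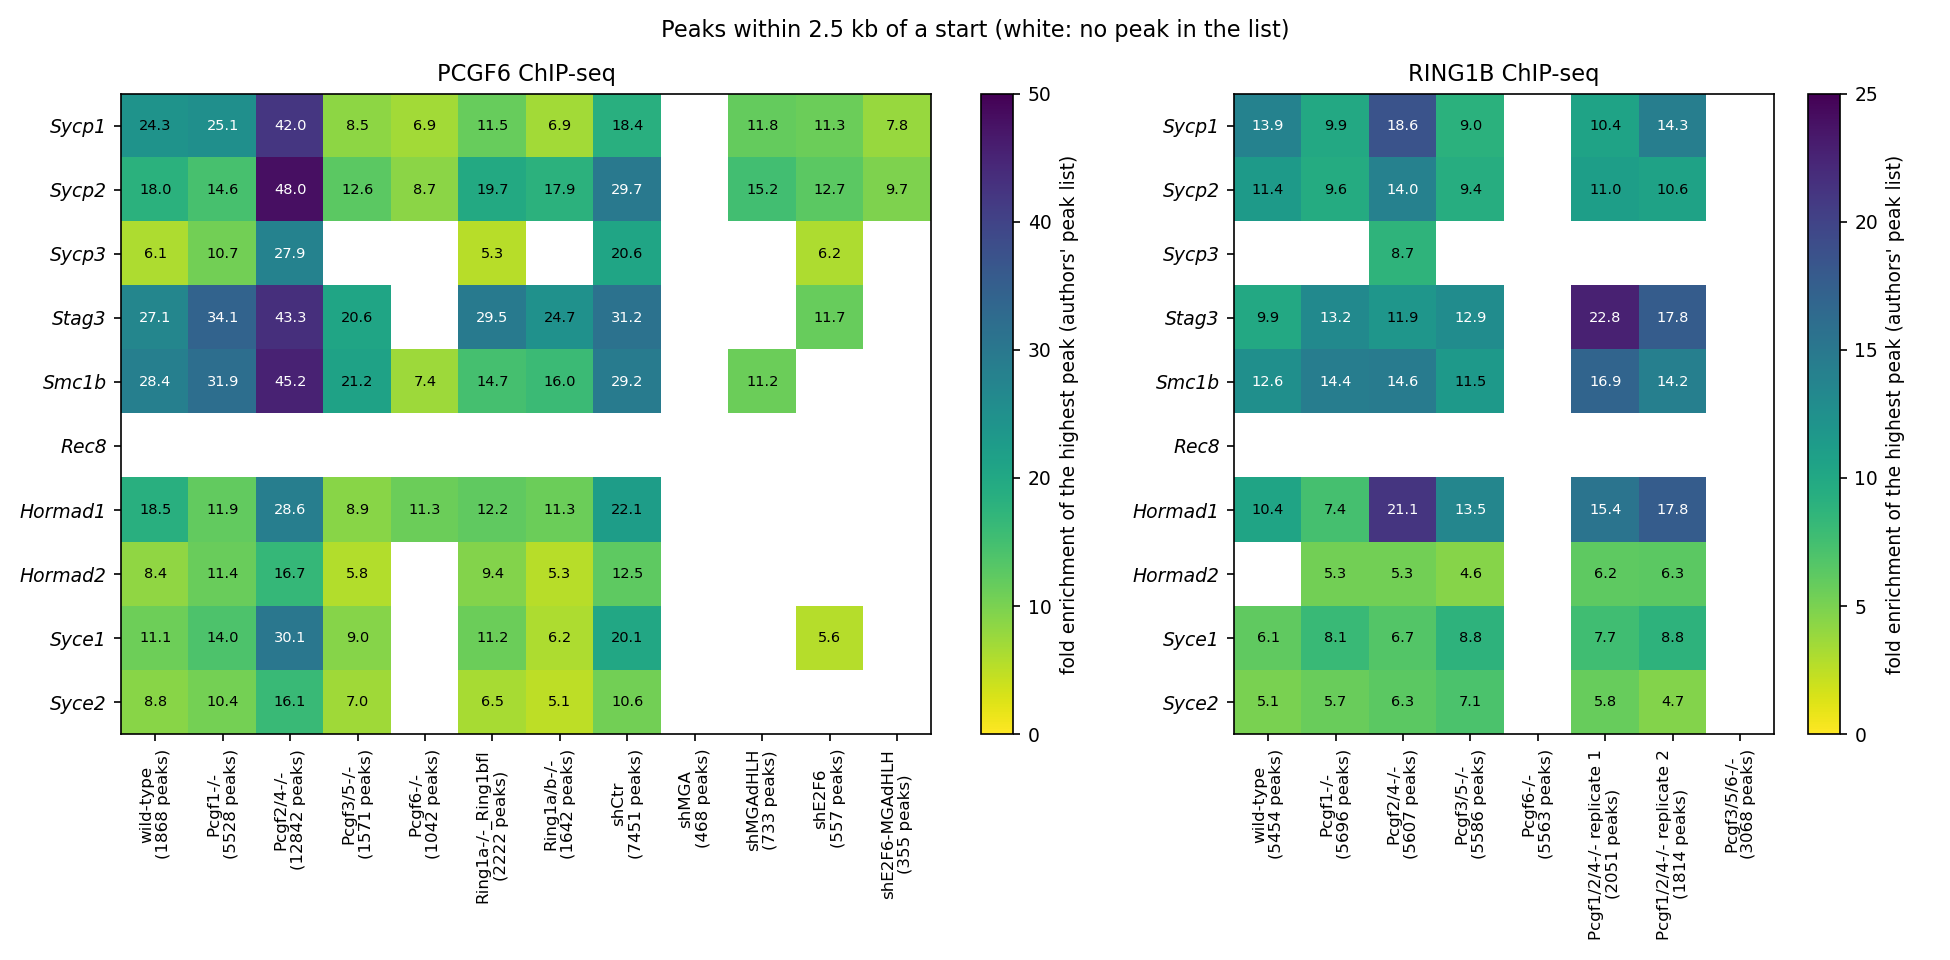
Fold enrichment of the highest PCGF6 peak (left) and RING1B peak (right) within 2.5 kb of a start, for the 10 genes (rows) in each deposited list (columns, with the number of peaks in the list). White cells have no peak. The RING1B columns Pcgf6-/- and Pcgf3/5/6-/- and the PCGF6 column shMGA are empty, and the Rec8 row is empty in both panels.

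WDR5, a protein shared by several chromatin complexes, had wild-type peaks at the same 9 genes as PCGF6, against 9.48% of genes in a list of 2176. The highest stood at Smc1b (19.8), Stag3 (17.5) and Sycp1 (16.7), and the lowest at Syce2 (5.68) and Sycp3 (5.85). The nearest WDR5 peak to Rec8 was 2374393 bp away.

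H3K4me3, a histone mark of active or poised promoters, was present at 8 genes in wild-type, all but Sycp2 and Rec8, against 68.4% of genes. It was present at 9 genes in Pcgf1-/- (67.4%), 10 in Pcgf2/4-/- (68.3%), 8 in Pcgf3/5-/- (67.1%) and 10 in Pcgf6-/- (70.1%). In Pcgf6-/- the heights at all 10 genes were above those in wild-type, where Sycp2 and Rec8 had no peak. Sycp2 had no H3K4me3 peak in wild-type, Pcgf1-/- and Pcgf3/5-/-, one of 8.78 in Pcgf2/4-/- and one of 25.8 in Pcgf6-/-. Syce1 went from 25 to 61.5, Sycp3 from 21.2 to 48.0 and Smc1b from 12.2 to 38.0. Stag3 changed less, from 54.4 to 64.4. In these 2 lists the Stag3 summits lay 418 and 429 bp before its start, past the start of Gpc2 at 235 bp. Those at Smc1b lay 187 and 234 bp before its start, past that of Ribc2 at 142 bp. These peaks thus cannot be assigned to 1 gene of each pair. The median height of the whole list was 14.3 in wild-type and 13.7 in Pcgf6-/-. In Pcgf2/4-/-, Smc1b reached 46.5 and Hormad1 23.8, while neither gene's RNA was called in that line.

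H3K36me3, a mark laid down over transcribed genes, covered 35.2% of Stag3, 15.5% of Syce2 and 3.17% of Rec8 in wild-type, and at most 0.835% of each of the other 7 genes. In Pcgf6-/- peaks covered 77.2% of Rec8, 45.9% of Syce1 and 8.33% of Sycp3. Sycp2 had none and Sycp1 had 0.713%. Stag3 was covered to 83.2% in Pcgf6-/-, and to between 63.3% and 87.8% in the other 3 knockouts with this mark. The wild-type list covered 69.55 Mb and the Pcgf6-/- list 93.1 Mb, so coverage was higher genome-wide. In both lists the median gene had none, while 39.7% of genes in wild-type and 43.4% in Pcgf6-/- had some.

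**Figure D5:**
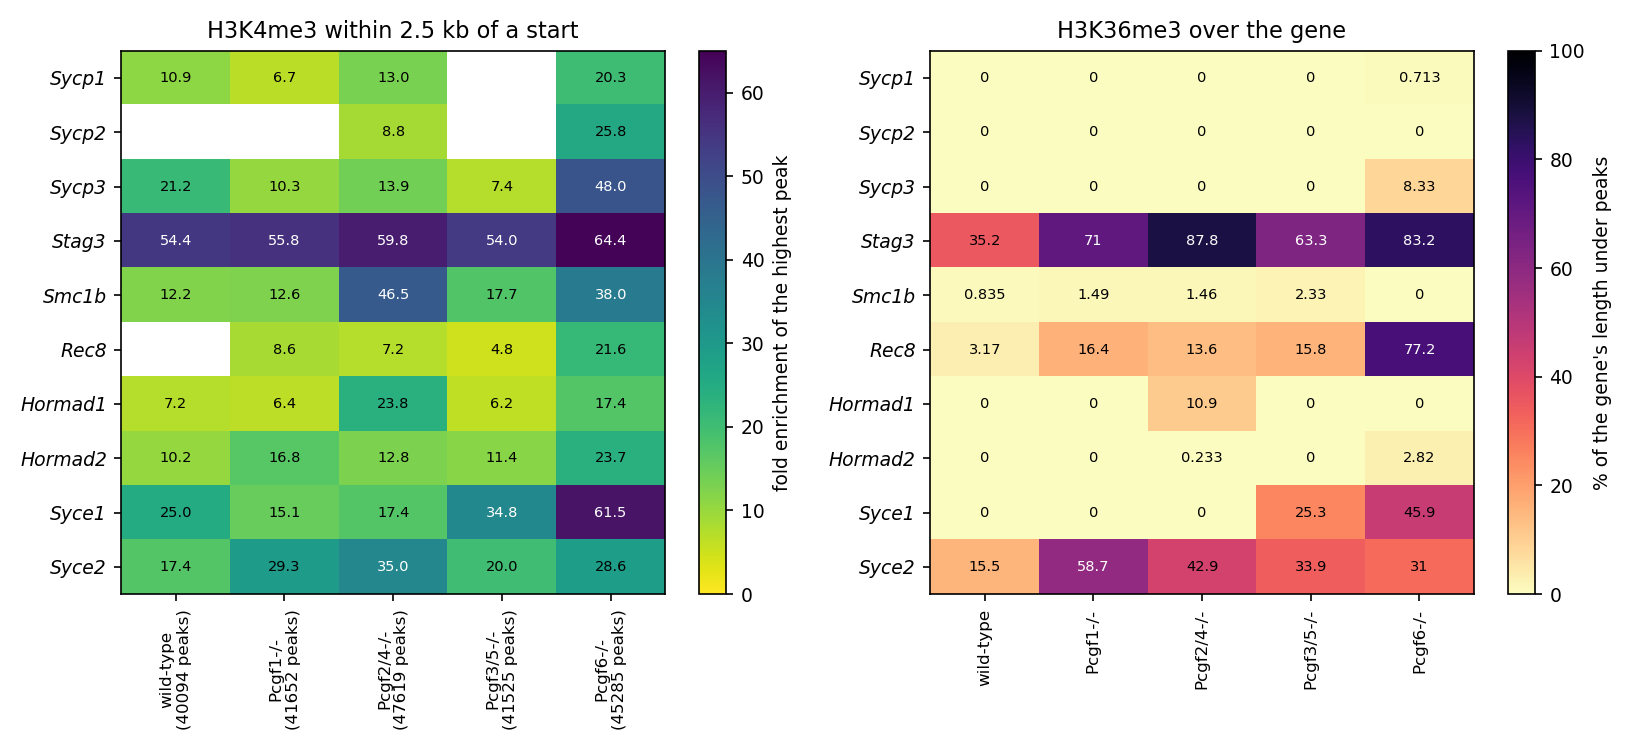
Fold enrichment of the highest H3K4me3 peak within 2.5 kb of a start (left, white where no peak was called) and percentage of each gene's length under H3K36me3 peaks (right), for the 10 genes in 5 lines with 1 list each. H3K4me3 at all 10 genes is higher in Pcgf6-/- than in wild-type, and H3K36me3 on Rec8 and Syce1 is most extensive in Pcgf6-/-.

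Other Polycomb proteins and marks were found at 0 to 3 of the genes in wild-type cells. SUZ12, a subunit of Polycomb repressive complex 2, had wild-type peaks at Sycp1 and Hormad1 (2 genes, against 17.2% of genes). Its mark H3K27me3 was found at Sycp1, Smc1b and Hormad1 (3 genes, against 13.4%), and H2AK119ub1, the mark laid by RING1B, at Sycp1 and Smc1b (2 genes, against 3.96%). In Pcgf6-/- 0 of the 10 genes had a peak of SUZ12 (15.1%), H3K27me3 (14.2%) or H2AK119ub1 (7.24%). In the remaining single and double lines, the H2AK119ub1 and H3K27me3 lists were longer. H2AK119ub1 was found at 6 genes in Pcgf1-/- (10.3%), 8 in Pcgf2/4-/- (42.1%) and 10 in Pcgf3/5-/- (66.9%), where it stood highest at Smc1b (46.9), Sycp1 (39.5) and Sycp2 (35.1). H3K27me3 was found at 6 genes in Pcgf1-/- (20.2%), 7 in Pcgf2/4-/- (36.8%) and 7 in Pcgf3/5-/- (21.6%). Sycp2 carried H3K27me3 in each of these 3 lines (9.87, 16.5 and 12.9) and no peak of it in wild-type or Pcgf6-/-. In the lists labelled Pcgf3/5/6-/-, H2AK119ub1 was found at 3 genes, Stag3, Smc1b and Syce2 (32.1%). H3K27me3 was found there at Smc1b alone (20.3%) and SUZ12 at 0 genes (13.6%). In Pcgf1/2/4-/-, H2AK119ub1 was found at 3 and 2 genes in 2 lists (1.72% and 0.852%), H3K27me3 at 4 (5.81%) and SUZ12 at 5 (13.8%).

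PCGF1 had 0 wild-type peaks at the genes (2.60%), and PCGF2 had 1, at Stag3 (13.4%). PCGF3 had 2 in wild-type, at Stag3 (10.5) and Hormad1 (8.31), against 0.890% of genes. In Pcgf6-/- it had 5, at Sycp1 (9.93), Sycp2 (7.62), Stag3 (7.85), Smc1b (7.91) and Hormad1 (11.1), against 2.31%. These 5 are the genes with the highest wild-type PCGF6 peaks.

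Genes that resembled the mean profile of the 10 over the 7 genotypes were sought among all genes tested with a mean log2 CPM of at least 1. The closest was Brpf1 (Pearson r = 0.991 over 7 group means), then Aga (0.988), 1700025G04Rik (0.983), Btbd10 (0.979) and 4930447C04Rik (0.977), the last a central element gene. Their levels in Pcgf6-/- against wild-type were 73.7 against 41.4 CPM, 85.9 against 29.0, 21.3 against 7.23, 186 against 121 and 47.3 against 4.87. Among the 10 genes, Sycp1 (r = 0.989) and Sycp2 (0.961) lay closest to their shared mean, Syce2 (0.09) was unrelated to it, and Stag3 (-0.53) ran against it. The shared mean includes the gene compared and is not scaled, so genes with large changes, such as Sycp1 and Sycp2, weigh most in it. These values describe 7 group means and carry no test.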

How the data were processed

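Per the submitters' processing notes, tools included bcl2fastq 2, TopHat2 2.1.1, Bowtie 1.2.2, Picard 1.62, HTSeq 0.7.2, DESeq2 3.7 and MACS2 2.1.1, with the build mm9. Per the labels' protocols, poly-A RNA was sequenced with a variant of SMART-seq2, and ChIP of histone marks carried a Drosophila chromatin spike-in. That spike-in scaling was not used here. The authors deposited whole-number counts per gene symbol, without normalization. The authors also deposited 6 tables of comparisons with log2 fold changes and adjusted p-values, per the file headers. In 80 peak lists the authors deposited a fold (ratio) enrichment and a −log10 q-value for each peak, called from 1 sample each. All per-sample columns were matched to samples (0 unmatched).

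Counts of 14 libraries entered 1 edgeR 4.0.16 quasi-likelihood fit (R 4.3.3) with TMM factors, on the 15464 genes that passed filterByExpr. Adjustment was by Benjamini-Hochberg over these genes, and adjusted p-values under 0.05 were called. The fit's common dispersion was 0.0150. Levels are CPM on TMM-scaled library sizes. With 2 libraries on each side, no exact permutation test can reach the threshold, so all tests rest on this model. Groups without a count were given a floor of 3 counts over the group. Such floors reflect counting error alone, because PCR reads lacking molecular identifiers are not independent.

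A gene had a peak when at least 1 bp of one lay within 2.5 kb of any annotated start (GENCODE M1, NCBIM37). Of the 1189711 peaks, 0 lay on chromosomes outside that build and 1 ran past a chromosome end. Motifs were searched in RefSeq promoters (GRCm38.p6), which were all found unchanged in NCBIM37, and around PCGF6 summits.

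All 10 genes are named, with their divergent neighbours, the listed genes past the threshold, and the 5 genes whose group means correlate best with the mean of the 10. The members and lists were chosen with earlier results of these data known. Alternatives were RLE factors, DESeq2 1.42.0, no filter on low counts, only the groups compared, the replicate number as a block, summed wild-type libraries, loess offsets, a minimum log2 fold change of 1 and each library left out. For peaks they were windows of 1 and 5 kb, the outermost start, a −log10 q of at least 5 and the summit in the window.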

Additional observations from a re-analysis of the deposited data

How the results depend on the processing

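For the peaks, the 4 wild-type counts of genes with a PCGF6, RING1B, H3K4me3 or WDR5 peak stayed within 1.5 times in all 20 alternative values. Of the counts of genes called, 56 of 62 values under other settings stayed within 1.5 times. With a minimum log2 fold change of 1, Pcgf1-/- gave 2 and Pcgf3/5-/- 1. Loess offsets gave 5 for Pcgf2/4-/- and 2 for Pcgf1/2/4-/-, and a fit of only the groups compared gave 1 and 2. Leaving out 1 library each gave 2 to 5 for Pcgf1-/-, 1 to 6 for Pcgf2/4-/-, 3 to 4 for Pcgf3/5-/-, 8 to 9 for Pcgf6-/-, 1 to 2 for Pcgf1/2/4-/- and 7 for Pcgf3/5/6-/-, all against wild-type. It gave 6 to 7 for Pcgf3/5/6-/- against Pcgf6-/- and 7 to 8 against Pcgf3/5-/-. A lone library was assumed to vary like the other groups.

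Of the 314 single-gene values under other settings, 306 kept their direction and their side of the threshold, 5 lost the call and 1 gained it. Direction changed for 3 values that were not called: Syce2 in Pcgf6-/- (0.0022) and Hormad1 in Pcgf3/5/6-/- (0.064) with loess offsets, and Hormad2 in Pcgf3/5/6-/- without wild-type replicate 1 (-0.033, against 0.37 without wild-type replicate 2). The cause was not tested. In 188 values with a library left out, 19 lost the call. With the replicate number as a block, the counts stayed at 9 for Pcgf6-/- and 7 for Pcgf3/5/6-/- against wild-type, and all 47 single-gene values, called or not, kept their direction and their side of the threshold. The numbers do not pair the samples, since deviations of same-numbered libraries correlated between -0.46 and 0.38 over 21 pairs of groups, above 0.1 in 3. Low counts limit Sycp1 and Sycp2 outside the Pcgf6-/- and Pcgf3/5/6-/- libraries, and Smc1b in Pcgf1-/-, Pcgf2/4-/- and Pcgf1/2/4-/-.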
